A study of Homo sapiens with 8 samples.

Results

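The sites described here are stretches of chromatin that were called accessible in ASH1L-/- cells and not in wild-type (WT) cells. They were chosen by the measured presence of called regions. The accessible regions of 8 peak lists were joined wherever they overlapped or touched, and a joined site was kept if all 4 lists from ASH1L-/- cells held a region there and none of the 4 WT lists did. Sites between 80 and 120 Mb of chromosome 4 were left out, because that block holds a dense group of such sites of its own (64). The rule left 958 knockout-only sites among 539508 joined sites outside the block, which is 0.178% of them, and the whole genome had 547779 joined sites. The mirrored rule, a region in all 4 WT lists and in no ASH1L-/- list, gave 419 wild-type-only sites, or 0.0777%. It left out the same stretch of chromosome 4 and no block of its own. Of the wild-type-only sites 29 lay on chromosome 13, or 3.85 per 1000 joined sites there against 0.777 over the genome. Since the difference in presence between the genotypes chose the sites, it is not tested again below. What follows describes the sites mainly by features that the rule did not use.

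ATAC-seq reads out open chromatin with the transposase Tn5, which cuts and tags DNA that is not packed away in compact chromatin. Open stretches are typically promoters, where transcription starts, and enhancers, distal elements that bind transcription factors such as AP-1. ASH1L is a histone methyltransferase of the Trithorax group that modifies histone H3 and is known for keeping developmental genes active, among them HOX genes. The study asked whether ASH1L opens chromatin after UV damage, and the 4 groups were WT cells without UV, WT cells 3 h after UV-C at 20 J/m2, ASH1L-/- cells without UV and ASH1L-/- cells 3 h after the same dose, each with 2 libraries labelled as biological replicates. All were U2OS cells, a human osteosarcoma line. In the ASH1L-/- cells CRISPR/Cas9 had left homozygous deletions in ASH1L exons, and the cells had been grown up from isolated colonies. A difference between the genotypes here therefore cannot be told apart from one between clonal lines.

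The 8 lists held between 158198 and 220783 regions. The genome mean pileup, solved from the peak values and used here as the measure of depth, was 1.74 to 2.67 in WT libraries and 1.39 to 5.87 in ASH1L-/- libraries. The deepest and the shallowest library both came from ASH1L-/- cells without UV. The weakest regions in the WT lists stood at 2.62 to 2.87 times the genome mean. Regions were called against the local background, which in the ASH1L-/- lists was 1.05 to 1.13 times the genome mean at the median knockout-only site and 3.84 to 5.46 times at the one of DMPK. A site absent from a WT list may therefore have been above that lowest level, and need not have been closed. Among defining markers, 5 of 7 mesenchymal genes (RUNX2, COL1A1, VIM, SPARC and FN1) had a promoter region in all 8 lists, COL1A2 in 7 and TWIST1 in 2. Of the blood genes reported here CD3E had one in 0, PTPRC in 1 and CD79A in 4 lists. The epithelial genes CDH1, EPCAM and KRT5 had one in all 8 and ESRP1 in 7, so an open promoter did not set these cell types apart.

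The 10 knockout-only sites of the highest rank, by the mean percentile of fold enrichment over the ASH1L-/- lists, show what the group contains. Fold enrichment is the pileup at a summit over the local background of the same library. Of the 10 sites, 2 lay at promoters, taken as 1 kb to either side of a protein-coding gene's transcription start (TSS), 3 elsewhere in such genes and 5 in intergenic sequence. The first site lay on chromosome 9 from 88113298 to 88113952 (hg38), 21408 bp from a TSS of SPATA31C2, a member of a spermatogenesis-associated family. Its fold enrichment was 13.8 and 11.9 in the libraries without UV and 16.2 and 12.5 after UV. The third lay near the end of chromosome 4, 88123 bp from a TSS of ZNF718, a zinc finger gene, at 7.64, 10.95, 16.9 and 13.98 in the same order. These sites were among the strong regions of every ASH1L-/- list, with mean percentiles of 94.6 to 96.0.

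The 300 bp around the summit are shown for 5 of the highest-ranked sites on hg38 and the plus strand, to let a reader see how different they are in base composition. They come from chr9:88113427-88113726 near SPATA31C2, chr4:212511-212810 near ZNF718, chr1:168609314-168609613 near XCL1, chr19:44875937-44876236 in an intron of NECTIN2 and chr19:48746962-48747261 at the promoter of IZUMO1. None of these windows overlaps an annotated exon of a protein-coding gene. Capitals mark exact matches on either strand to any of the 13 motifs described further below.
SPATA31C2: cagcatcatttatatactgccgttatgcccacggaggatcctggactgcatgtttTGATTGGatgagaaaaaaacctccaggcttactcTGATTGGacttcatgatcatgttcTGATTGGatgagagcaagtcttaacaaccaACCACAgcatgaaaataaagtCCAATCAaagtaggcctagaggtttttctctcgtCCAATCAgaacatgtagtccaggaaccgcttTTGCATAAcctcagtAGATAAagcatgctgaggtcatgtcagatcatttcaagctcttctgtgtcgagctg
ZNF718: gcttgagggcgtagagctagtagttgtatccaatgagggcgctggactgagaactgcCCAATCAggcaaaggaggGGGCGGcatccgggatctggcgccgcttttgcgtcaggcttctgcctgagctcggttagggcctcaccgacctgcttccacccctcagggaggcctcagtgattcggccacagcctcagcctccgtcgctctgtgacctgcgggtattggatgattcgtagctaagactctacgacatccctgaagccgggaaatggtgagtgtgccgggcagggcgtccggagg
XCL1: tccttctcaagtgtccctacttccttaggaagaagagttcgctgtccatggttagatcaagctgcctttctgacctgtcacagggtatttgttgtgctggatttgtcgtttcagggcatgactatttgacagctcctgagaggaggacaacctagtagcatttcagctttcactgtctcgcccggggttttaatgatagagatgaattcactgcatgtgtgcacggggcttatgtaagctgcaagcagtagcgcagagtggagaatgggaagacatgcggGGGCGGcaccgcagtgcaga
NECTIN2: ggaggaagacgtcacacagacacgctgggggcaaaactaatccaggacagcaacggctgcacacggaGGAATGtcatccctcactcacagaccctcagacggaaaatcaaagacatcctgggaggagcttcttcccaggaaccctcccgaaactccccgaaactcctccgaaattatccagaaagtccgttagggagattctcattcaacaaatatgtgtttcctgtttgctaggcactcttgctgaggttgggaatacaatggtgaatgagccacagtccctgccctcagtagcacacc
IZUMO1: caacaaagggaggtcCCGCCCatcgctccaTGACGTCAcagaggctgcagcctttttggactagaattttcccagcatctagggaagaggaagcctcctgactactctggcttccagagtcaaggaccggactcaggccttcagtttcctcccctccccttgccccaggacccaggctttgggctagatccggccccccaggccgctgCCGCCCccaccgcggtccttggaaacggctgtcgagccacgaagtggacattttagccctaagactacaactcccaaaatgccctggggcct
The first window holds the CCAAT box letters CCAATCA 5 times and has 43% GC. The ZNF718 window has 61.3% GC and 19 CpG dinucleotides, and the IZUMO1 window has 60% GC, the cyclic AMP response element letters TGACGTCA and GGGCGG, the letters bound by SP and KLF factors. None of the 5 windows holds the AP-1 letters TGANTCA.

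As a whole the knockout-only sites were of middling strength. Their median percentile of fold enrichment was 60.6 and 49.7 in the ASH1L-/- libraries without UV and 44.1 and 51.4 in those after UV. The sites held by all 8 libraries had medians of 79.9 to 85.7 in the same lists. The plot of ranks by library shows both groups with their quartiles. The median fold enrichment was 2.79 in replicate 1 without UV, the deepest library, and 3.595 to 3.70 in the other 3. A q-value below 0.05 was reached in all 4 ASH1L-/- lists by 654 sites (68.3%) and in no list by 1 site, and 35 sites (3.65%) ranked in the top 25% of every ASH1L-/- list. In multiples of the genome mean, 790 sites (82.5%) were above 2.87, the highest of these lowest WT levels, in all 4 ASH1L-/- libraries, and 152 (15.9%) were above 2 times that level.

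**Figure D1:**
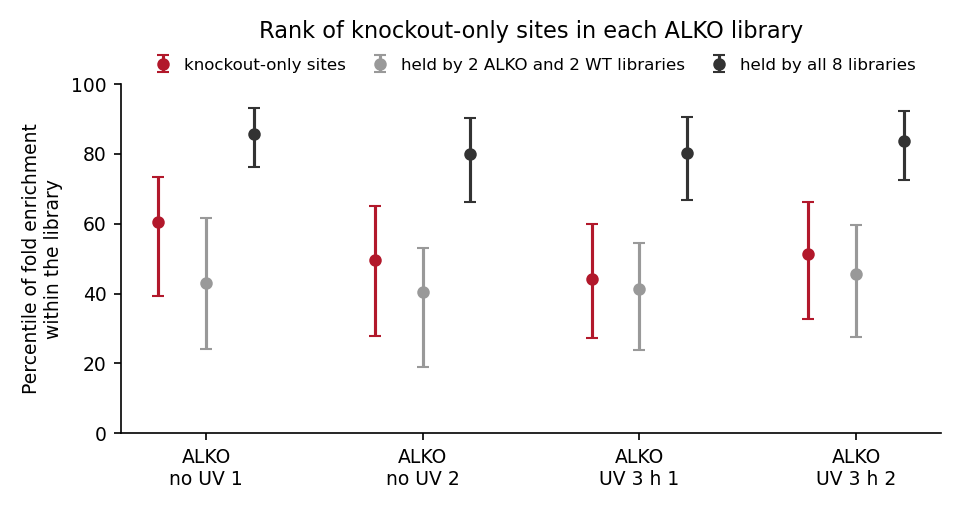
Percentile of fold enrichment within each of the 4 ASH1L-/- (ALKO) libraries for knockout-only sites (red), sites held by 2 ASH1L-/- and 2 WT libraries (grey) and sites held by all 8 (black), where points are medians and bars run from the lower to the upper quartile. The medians of the knockout-only sites lie between 44.1 and 60.6, below those of the sites held by all 8 libraries in every list.

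Sites just outside the rule were more numerous than those inside it. All 4 ASH1L-/- lists and exactly 1 WT list held 1562 sites, and 3 of the 4 ASH1L-/- lists and no WT list held 3201. Of the first kind, 665 were held by replicate 2 of WT cells after UV and 174 by replicate 1 of the same group, and of the second kind 1343 were missing from replicate 2 of ASH1L-/- cells without UV, the shallowest library. By mean percentile, 2 excluded sites (97.3 and 96.3) ranked above every member. The promoter of ZNF233 on chromosome 19 had fold enrichments of 11.5 to 15.8 in the 4 ASH1L-/- lists and 2.56 in 1 WT list. A site in AGBL4 on chromosome 1 reached 8.74 to 17.6 against 2.58 in 1 WT list. At the other end, the member with the lowest mean percentile (4.63) was the ZNF200 promoter on chromosome 16, with fold enrichments of 1.73 to 2.47.

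Most knockout-only sites were distal. A promoter, within 1 kb of a TSS of a protein-coding gene, held 104 of them (10.9%, 95% interval 8.96 to 13.0%, exact binomial). Gene bodies held 325 (33.9%), of which 303 lay in introns and 22 in exons, and 529 (55.2%, 52.0 to 58.4%) were intergenic. Wild-type-only sites were 9.79% promoter and 47.5% intergenic (42.6 to 52.4%), and sites held by all 8 libraries were 23.4% promoter and 43.99% intergenic. Promoters held 9.44% of the sites held by 2 libraries of each genotype and 8.43% of all joined sites, of which 47.8% were intergenic. Being mostly distal was thus not particular to the knockout-only sites. A further 53 members (5.53%) lay within 1 kb of a TSS of a long non-coding RNA gene. The share was 4.77% in wild-type-only sites, 4.49% in sites held by all 8 libraries and 2.33% in all joined sites. The intervals cover counting error only, since sites of one library are not replicates.

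The median GC content of the 300 bp windows was 52%, against 48% in wild-type-only sites, in sites held by 2 libraries of each genotype and in all joined sites, and 51% in sites held by all 8 libraries. Outside promoters the knockout-only sites were richer in GC and CpG than each of these groups. There the median GC content was 51.3% against 47.3 to 48.7%, and a distal window held 6.89 CpG on average against 4.39 in wild-type-only sites, 5.31 in sites held by all 8 libraries and 3.82 in all joined sites.

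AP-1 is a dimer of FOS and JUN proteins that binds TGANTCA at many enhancers of mesenchymal cells. These letters were present in 149 knockout-only windows (15.6%, 13.3 to 18.01%). They were present in 40.6% of wild-type-only windows (35.8 to 45.4%), in 37.0% of windows held by 2 libraries of each genotype, in 39.0% of those held by all 8 and in 18.8% of all joined sites. The share of knockout-only sites thus lay below the interval of each of the other groups held by at least 4 libraries, and somewhat below the share of all sites, most of which were called in few libraries. The letters GGAATG bound by TEAD factors, partners of AP-1 at enhancers, were less different, with 19.4% against 21.96% in wild-type-only sites and 19.4% in all joined sites. The letters TGTGGT of RUNX factors, which direct bone development, were present in 25.6% against 30.3% and 24.1%.

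Other letters were more frequent in the knockout-only windows than in wild-type-only windows. GGGCGG of SP and KLF factors was present in 20.5% of them, against 6.68% in wild-type-only sites, 8.72% in all joined sites and 21.9% in sites held by all 8 libraries, and outside promoters in 18.1% (15.6 to 20.9%) against 5.29% and 6.73%. The distal share in sites held by all 8 libraries was 12.1%. CCAATCA, the core of the CCAAT box bound by NF-Y and examined after the windows had been read, was present in 10.1% (8.29 to 12.2%) against 2.86% and 3.65%. TGTTTAC of FOX factors was present in 10.9% (8.96 to 13.0%) against 5.01% and 4.12%, and the E-box CAGCTG of basic helix-loop-helix factors in 23.3% against 14.1% and 17.5%. In sites held by all 8 libraries the CCAAT box share was 4.73%, the FOX share 4.48% and the E-box share 20.2%. CTCF, the factor of insulators and loop anchors, had a match in 6 knockout-only windows (0.626%, 0.230 to 1.36%) and in 3.38% of those held by all 8 libraries. The interval covered the 1.19% of wild-type-only sites, the 1.19% of sites held by 2 libraries of each genotype and the 0.794% of all joined sites. The share bars by motif place these groups side by side. The remaining motifs were CCGGAAG of ETS factors (3.55% of knockout-only windows, 1.63% of all joined sites), TTGCNNAA of C/EBP factors (11.4% and 12.3%), TAATTA of homeobox factors (4.59% and 5.84%), AGATAA of GATA factors (11.4% and 13.7%) and the cyclic AMP response element (0.626% and 0.263%). Motifs were searched on both strands, could overlap each other, and describe letters and not bound factors.

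**Figure D2:**
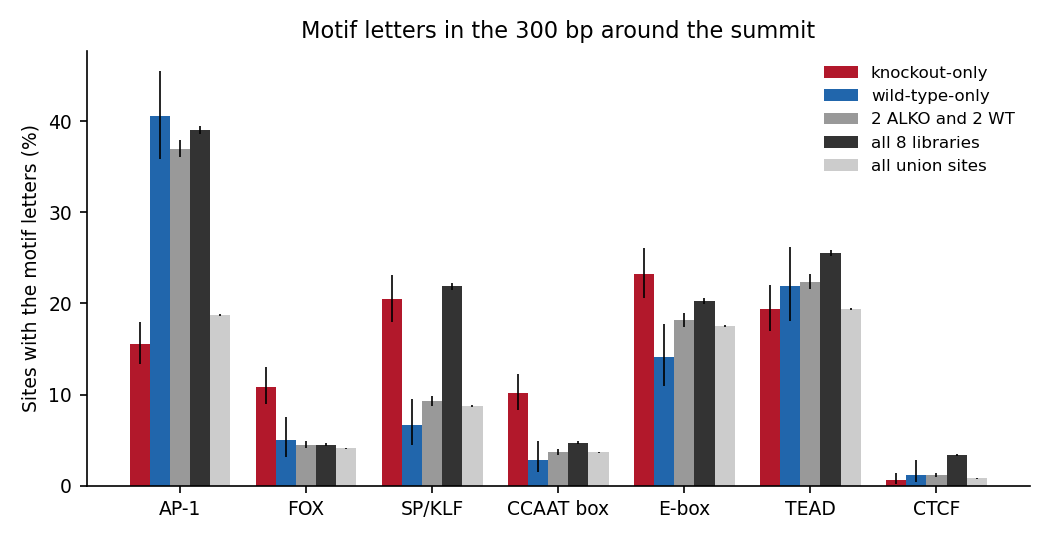
Share of sites (%) whose 300 bp window holds the letters of a motif, for knockout-only sites, wild-type-only sites, sites held by 2 libraries of each genotype, sites held by all 8 libraries and all joined sites, with 95% exact binomial intervals. The AP-1 bar of the knockout-only sites stands at 15.6% beside 37.0 to 40.6% in the sites held by 4 or more other libraries, while their FOX, SP/KLF and CCAAT box bars are above those of wild-type-only sites.

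Part of these letters came from repeated sequence. A stretch of 32 bases was called repeated if it occurred more than once in hg38, on either strand. More than 50% of the 32-base stretches were repeated in 140 knockout-only windows (14.6%), in 32 wild-type-only windows (7.64%) and in 358 of the 10281 windows held by 2 libraries of each genotype (3.48%). When knockout-only windows that shared at least 10 such stretches were chained together, 167 members (17.4%) fell into 17 groups, of which the largest had 61, 45 and 28 members. The grouping was made after the windows had been read. No repeat annotation was used, so the repeat names below rest on recognising the letters and were not checked against one. Since the windows were chained, members of a group need not share the same letters: the most frequent stretch of 30 bases was in 33 of the 61, 12 of the 45 and 10 of the 28 windows.

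The group of 61 had the letters of the 5′ end of LINE-1 elements, retrotransposons that copy themselves through RNA and whose transcription starts in that end. Its members lay on 19 chromosomes. The FOX letters were present in 45 of the 61 windows (73.8%), the median GC content was 57.3% and the mean number of CpG 12.05. The group was somewhat stronger than the other members, with median percentiles of 73.5, 63.1, 55.1 and 62.3 in the ASH1L-/- lists in the order given above. One of its strongest members lay at −288822 bp from a TSS of the homeobox gene MEIS1, on chromosome 2 from 66144293 to 66145210, with fold enrichments of 4.37, 6.28, 14.5 and 11.5. In 6 cases the LINE-1 letters lay within 1 kb of an annotated TSS of a protein-coding gene. These were PLCB1, SYT1, SLC15A2, MGST1, WDR72 and CHRNB4, which encode a phospholipase C, a synaptic vesicle protein, a peptide transporter, a microsomal glutathione transferase, a WD-repeat protein of enamel and a nicotinic receptor subunit. At PLCB1, on chromosome 20 from 8114419 to 8115090, the fold enrichments were 4.51, 6.69, 11.99 and 11.9.

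The group of 28 had the letters of LTR12, the long terminal repeat of an endogenous retrovirus family. The CCAAT box letters were present in 27 of its 28 windows, and the FOX letters in 15. Its members lay on 16 chromosomes, and 5 of them were on chromosome X. The strongest lay near WDR44 on chromosome X from 118281505 to 118282753, at fold enrichments of 6.80, 9.24, 11.1 and 7.92. The members inside TNN on chromosome 1, a gene of the extracellular matrix protein tenascin-W, also belonged to it and numbered 3. Many windows in the group of 45 had letters of Alu elements, the most abundant short repeat of the human genome, with a median GC content of 52% and 12.2 CpG per window.

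To count the letters of these groups in all sets of sites, each window was matched only against 32-base stretches of group members. These stretches came from the other class of chromosomes, odd against even numbers and X. LINE-1 letters were then present in 61 knockout-only windows (6.37%, 4.91 to 8.10%), 3 wild-type-only windows (0.716%, 0.148 to 2.08%), 0.376% of sites held by all 8 libraries and 0.366% of all joined sites. LTR12 letters were present in 2.82% (1.87 to 4.07%), 0.239% (0.00604 to 1.32%), 0.100% and 0.153%. Alu letters were present in 4.49% (3.27 to 5.999%) against 1.91% (0.828 to 3.73%) and 1.87% of all joined sites. The knockout-only shares were largely set in advance, since the groups were made by chaining knockout-only windows that share such stretches. The match also favours letters found in knockout-only members, which were its source, so the difference between the sets was not tested.

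The same letters were counted in every library over all sites it held. Sites with LINE-1 letters made up 0.301, 0.368, 0.344 and 0.325% of the sites of the 4 WT libraries, in the order of no UV and then UV. They made up 0.484, 0.511, 0.519 and 0.572% of those of the 4 ASH1L-/- libraries. Without the knockout-only and wild-type-only sites the ranges were 0.300 to 0.367% and 0.457 to 0.542%. For LTR12 the libraries had 0.0991 to 0.120% in WT and 0.155 to 0.200% in ASH1L-/- cells, and 0.0988 to 0.119% and 0.137 to 0.185% without those sites. The lowest ASH1L-/- value for LTR12 came from the shallowest library. For Alu the libraries of the genotypes overlapped, with 1.24 to 1.64% and 1.496 to 1.62%. The letters were taken from sites chosen by presence in these same lists, so a higher share in ASH1L-/- libraries was favoured in advance. Leaving out the knockout-only and wild-type-only sites does not remove this, since sites that miss the rule by 1 library remain. The shares are therefore given without a test. The plot of repeat letters by library shows the LINE-1 and LTR12 shares.

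**Figure D3:**
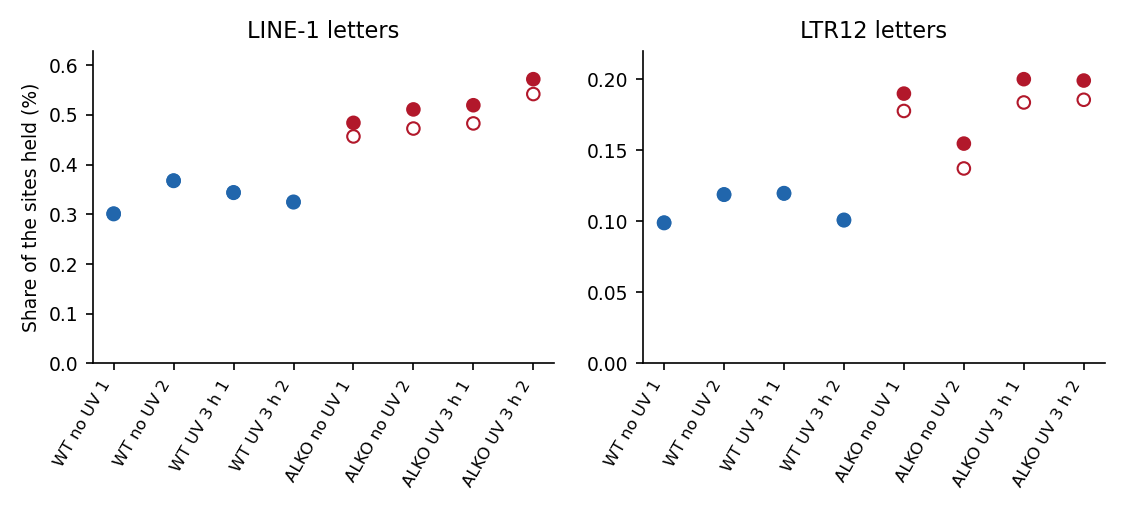
Share (%) of the sites held by each of the 8 libraries whose window has LINE-1 letters (left) or LTR12 letters (right), in WT (blue) and ASH1L-/- (ALKO, red) libraries, where open circles leave out the knockout-only and wild-type-only sites (hidden behind the filled ones in WT). All 4 ASH1L-/- libraries lie above all 4 WT libraries in both panels, with LINE-1 shares of 0.484 to 0.572% against 0.301 to 0.368%. The letters were taken from sites chosen by presence in these same lists.

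Outside the sequence groups the FOX letters were close to the share of all sites, with 39 of 791 members (4.93%, 3.53 to 6.68%) against 4.12% of all joined sites. The other motif shares moved less. AP-1 letters were present in 16.7% of the 791 members (14.2 to 19.5%), SP/KLF letters in 21.7%, CCAAT box letters in 7.71% (5.95 to 9.80%) and E-box letters in 25.5%, and the median GC content was 51.3%.

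Of 19970 protein-coding genes, 110 (0.551%) had a knockout-only site within 1 kb of a TSS. The 104 promoter sites had a nearest gene that lacked any promoter region in the 4 WT lists in 34 cases. In 51 cases the nearest gene had another promoter region in all 4 WT lists, and in 19 cases in 1 to 3 of them. The highest-ranked promoter site, at DNAJC18, which encodes a heat shock protein cochaperone, was of the second kind. It lay on chromosome 5 from 139439187 to 139439857, 47 bp from a TSS, with fold enrichments of 7.68 and 14.3 without UV and 11.8 and 15.7 after UV. IZUMO1, the sperm protein that binds the egg, followed with 6.24, 8.72, 13.3 and 11.4 at a site −203 bp from a TSS, and 1 WT list had another promoter region there. Next by rank was PLCB1, described above, which like SYT1, also among the first 10, had another promoter region in all 4 WT lists.

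A further set of genes is described because none had a promoter region in any WT list. ZNF132, a zinc finger gene on chromosome 19, had fold enrichments of 5.54 and 6.15 without UV and 11.0 and 10.9 after UV at a site from 58439826 to 58440589. H2BC8, a gene of replication-dependent histone H2B, had 8.47, 7.08, 7.70 and 8.03 at a site of chromosome 6 from 26216312 to 26217416, with little spread between the libraries. ZNF732 on chromosome 4 (305193 to 305798) had 5.24 and 4.18 without UV and 13.3 and 11.5 after UV. LRIF1, which encodes a partner of the heterochromatin protein HP1, had 5.62, 5.30, 9.81 and 8.63 on chromosome 1 from 110963591 to 110964321. CDKN2B, the gene of the cell cycle inhibitor p15, had 4.22, 5.79, 8.65 and 10.9 at a site −136 bp from a TSS on chromosome 9 (22009038 to 22009696). Further down, MAGEB1 of the cancer-testis antigens had 4.37 to 6.69 and EPHA3, an ephrin receptor, 4.22 to 6.82. The neural transcription factor POU3F2 had 3.49 to 7.22, the homeobox gene ALX1 3.77 to 6.96, the phosphatase gene DUSP6 2.62 to 2.93 and the repressor HIC1 1.89 to 3.35. In replicate 1 without UV HIC1 stood at 2.04 and DUSP6 at 2.90 times the genome mean. The weakest regions of the WT lists stood at 2.62 to 2.87 times, so absence from them need not mean closed promoters at HIC1 and DUSP6. DMPK, the kinase gene of myotonic dystrophy and not in this set of genes, had 6.07, 7.26, 7.17 and 8.34, and 3 WT lists had another promoter region there. For ZNF732 the libraries after UV were above those without UV, while for H2BC8 they overlapped.

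**Figure D4:**
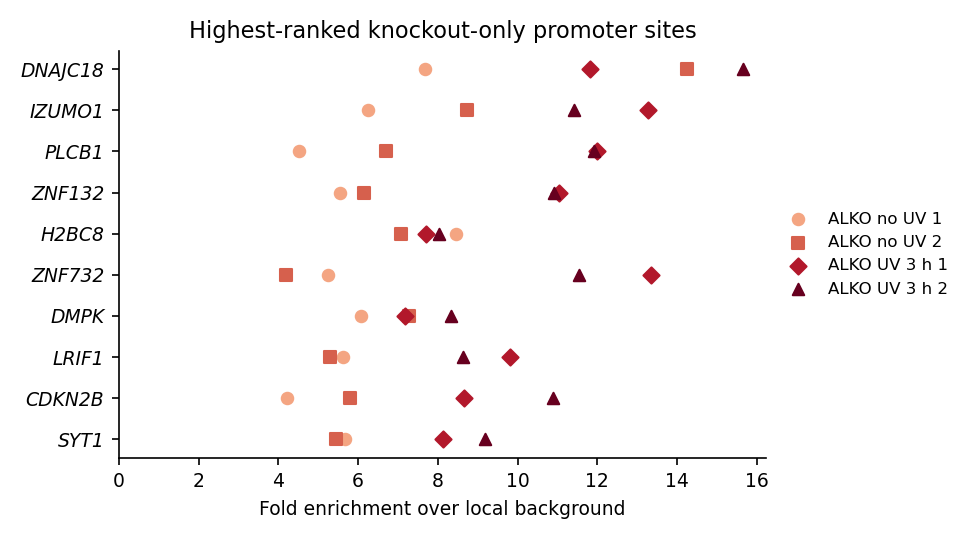
Fold enrichment over the local background in each of the 4 ASH1L-/- (ALKO) libraries at the 10 highest-ranked knockout-only promoter sites, 1 symbol per library. Values run from 4.18 at ZNF732 to 15.7 at DNAJC18, and the WT lists held no region at any of these sites.

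Some gene families recurred, and these were picked after the list had been seen. Genes named ZNF, which encode zinc finger proteins, had a knockout-only promoter site in 11 of 515 cases (2.14%, against 0.551% of all protein-coding genes). Of the 48 ZNF genes without a promoter region in any WT list, 8 (16.7%) had one in all 4 ASH1L-/- lists, against 45 of 3136 (1.43%) over all protein-coding genes. For the clustered protocadherins, cell adhesion proteins of neurons, the counts were 4 of 53 (7.55%) and 4 of 17 without a WT region. For the replication-dependent histone genes they were 3 of 70 (H2AC8, H2BC8 and H3C6, of which the first 2 share a site) and 2 of 23, and for the MAGE and PAGE genes, most of which are silent outside the testis and tumours, 3 of 38 (MAGEB1, MAGEE2 and PAGE5) and 3 of 25. The keratin and keratin-associated genes had 2 of 149 and 1 of 74. The counts among genes without a WT region repeat the contrast of the rule gene by gene. Since the families were also picked from the list itself, none of these counts was tested.

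Gene lists chosen for the known roles of ASH1L and of U2OS cells had no knockout-only site at a promoter. Over all protein-coding genes that share was 0.551%. A knockout-only site within 100 kb of a TSS was found for 1864 protein-coding genes (9.33%). None of 39 HOX genes, targets of Trithorax proteins, had one at a promoter, and 4 (10.3%, HOXB1 to HOXB4, which share it) had one within 100 kb. Nucleotide excision repair, which removes UV lesions, had 0 and 2 (8.33%, DDB1 and ERCC1) of 24. Histone H3 methylation with the FACT chaperone had 0 and 2 (14.3%, KMT2B and MORF4L1) of 14. The AP-1 subunit genes had 0 and 3 (25%, BATF, FOSL1 and JUNB) of 12, and the TEAD and YAP genes 0 and 1 (8.33%, YAP1) of 12. No mesenchymal, blood or epithelial marker gene had one within 100 kb. The lists are short, and their shares were not tested.

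Knockout-only sites lay close to each other in some places. Within 100 kb of another one were 114 members (11.9%), against 29 of the wild-type-only sites (6.92%), a share that also depends on how many sites there are. They formed 52 clusters, of which 7 had 3 or more members. The largest lay in the protocadherin gamma cluster on chromosome 5 from 141338560 to 141403188, where 5 members included the promoters of PCDHGA2, PCDHGB3, PCDHGA7 and PCDHGA9. Outside these members, which are in every ASH1L-/- list and no WT list by the rule, the WT libraries had 1, 4, 1 and 1 regions in that stretch and the ASH1L-/- libraries 6, 4, 5 and 13, so the genotypes met at 4. The fold enrichments were 1.89 to 6.82 at PCDHGA2, 2.42 to 6.60 at PCDHGB3, 3.35 to 5.58 at PCDHGA7 and 3.10 to 6.44 at PCDHGA9.

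The other clusters were counted in the same way, without their members. All clusters were chosen by their knockout-only sites, and the counts were not scaled to the size of each list. Differences between the genotypes in these stretches were not tested. In the cluster near SPATA31C2 and CDK20 on chromosome 9 (87959743 to 88113952, 4 members), WT libraries had 12, 18, 9 and 9 other regions and ASH1L-/- libraries 22, 13, 11 and 17, and the ranges overlapped. A stretch of chromosome 4 from 73853283 to 74012577 with the chemokine genes CXCL5, PF4 and PF4V1 had 8, 9, 11 and 11 in WT and 28, 23, 17 and 25 in ASH1L-/- libraries, and there the ranges did not overlap. It lies a few Mb before the block that the rule left out. Inside TNN the 3 LTR12 sites stood in 6.92 kb of chromosome 1 (175101607 to 175108526), with no other site between them. The stretch near MAT2B on chromosome 5 had 0 to 2 other regions in WT and 2 to 4 in ASH1L-/- libraries, that near CRIM1 on chromosome 2 had 2 to 5 and 3 to 8, and that near GMFG on chromosome 19 had 15 to 17 and 11 to 18. Apart from the protocadherins and TNN, the genes with 3 members inside were ELMO1 and SUGCT, both long genes on chromosome 7.

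**Figure D5:**
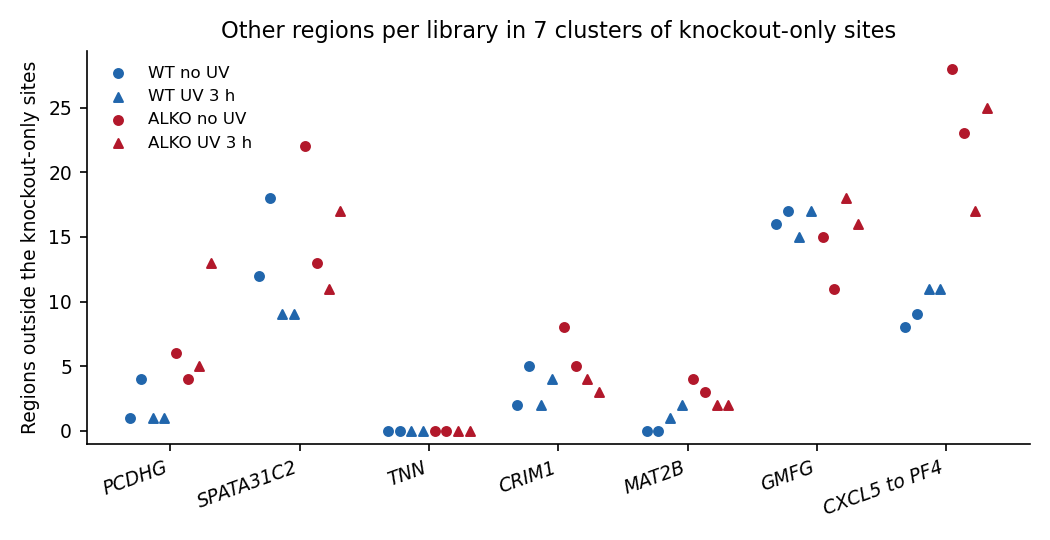
Number of regions called in each library inside the 7 clusters with 3 or more knockout-only sites, with the knockout-only sites themselves left out, named by a gene in or near each, for WT (blue) and ASH1L-/- (ALKO, red) libraries without UV (circles) and after UV (triangles). At CXCL5 to PF4 the WT libraries have 8 to 11 other regions and the ASH1L-/- libraries 17 to 28, TNN has 0 in all 8, and the ranges meet or overlap at the other 5. The clusters were chosen by their knockout-only sites, and the counts are not scaled to list size.

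Across the genome the sites were spread over all chromosomes from 1 to 22 and X. There were 1.78 per 1000 joined sites, with 1.095 on chromosome 1 and 2.85 on chromosome X (20 sites) as the lowest and highest shares. Chromosome 15 had 58 knockout-only and 3 wild-type-only sites, and chromosome 13 had 21 and 29. Among 296 bins of 10 Mb the median was 1.58 per 1000. The highest bin, 110 to 120 Mb of chromosome X, had 5 of 274 joined sites, and these 5 all belonged to the group of 28 with LTR12 letters. It was followed by 80 to 90 Mb of chromosome 12 with 4 of 419 and 10 to 20 Mb of chromosome 6 with 10 of 1124. No wild-type-only site lay in these 3 bins. Relative to its whole list, the number of regions in them overlapped between the genotypes, for example 2.63 to 3.66 per 1000 in WT and 2.68 to 3.605 in ASH1L-/- libraries for the bin on chromosome 6.

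Whether UV changed the knockout-only sites could be described only within ASH1L-/- cells, with 2 libraries against 2, where the smallest p of an exact permutation test is 0.333, so no test was made. By percentile, 130 sites (13.6%) were higher in both libraries after UV than in both without and 253 (26.4%) lower, with a median difference of −3.80 points. Sites held by all 8 libraries gave 19.3% and 29.2%, with a median of −0.64. By multiples of the genome mean, 234 knockout-only sites (24.4%) were higher and 57 (5.95%) lower after UV, with a median log2 difference of 0.14. The sites held by all 8 libraries gave 53.7% and 3.12% and 0.54, over the 58326 whose pileups could be solved. The sign of the median thus depended on the scale. On the second scale the promoter sites had a median log2 difference of 0.34 and the distal ones of 0.12.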

How the data were processed

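ATAC-seq peak lists of 8 U2OS libraries were used, 2 per group, grouped by the sample titles. Per the submitters' processing notes and the study's methods, reads were trimmed (cutadapt 1.9.1), aligned to hg38 without chromosome Y (Bowtie2 2.4.5), cleared of duplicates, poorly mapped and blacklisted reads (SAMtools 1.7, bedtools 2.29.2, Picard) and peaks were called per library (MACS2 2.2.7.1), so near-identical repeat copies are measured only where reads map uniquely. The deposited lists gave, per summit, a fold enrichment (the ratio of pileup to local background), a −log10 p-value, a −log10 q-value, a score and the summit offset, none normalised between libraries by the authors.  The score was not used.

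Records of one interval were merged into 1 region with the summit of highest fold enrichment, and regions of all lists into joined sites. Pileup and background were solved from fold enrichment and p-value, which failed for 74 to 3114 regions per list and otherwise gave whole pileups within 0.05 in 100% of cases, and this step and the site rule were tested on simulated data. Depth is thus relative, and absolute read numbers are unknown. Sites were placed by the median summit against GENCODE release 44. Python 3.11.15, numpy 2.4.6, pandas 2.3.3, scipy 1.17.1 and matplotlib 3.10.9 were used.

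Sites were named by these rules: the 10 members of highest mean percentile, the promoter members with values for the first 10, genes with 3 or more members inside, the lowest member, the strongest sites missing the rule by 1 library, and the 3 densest bins. Other promoter, repeat and cluster sites were named after their values were seen. Members and gene lists were chosen with earlier results of these data known. Letter case in the reference does not mark repeats, so no masked share was computed. Sequences printed avoid chromosome 8 and annotated exons. A few genes and sequences are not reported here.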

Additional observations from a re-analysis of the deposited data

How the results depend on the processing

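The number of knockout-only sites depended most on single libraries. Without 1 library in turn it ranged from 1128 to 2301, and it was 1625 without replicate 2 of WT cells after UV, 1483 without replicate 1 and 2301 without replicate 2 of ASH1L-/- cells without UV, and 1790 without replicate 1 of ASH1L-/- cells after UV. Leaving a library out makes the rule looser, so a rise follows from its construction. The number stayed within 1.5 times of 958 under both q-value thresholds (845 and 666), with q below 0.05 asked of the ASH1L-/- lists only (653), with a region covering 50% of the site (712), without joining touching regions (955), with the block kept (1022) and without chromosome 4 (907). The promoter share was 13.6% within 2 kb and 18.9% with all annotated genes, and 8.43 to 10.5% without 1 library. The median GC content was 52.3% with q below 0.05, 51.4% in 500 bp windows and 50.7 to 52.3% without 1 library. The AP-1 share was 11.3% in 200 bp and 21.5% in 500 bp windows and 14.5 to 20.4% without 1 library. The comparison groups had 37.0 to 40.6% and all joined sites 18.8%, counted only in 300 bp windows under the full rule. Without 1 library the share stayed below that of the comparison groups but not always below that of all joined sites. With the 140 windows of mainly repeated sequence left out, an alternative chosen after seeing the data, the median GC content was 51.3%. No paired analysis was possible because the results come from no test. A site missing from a WT list need not be closed, since regions were called against local background, and lists without read counts limit comparison between libraries.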
